A study of Mus musculus with 22 samples.

Results

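Microglia are the resident macrophages of the brain, and the 9 genes described here are those by which they are usually recognised: the receptors and identity genes Cx3cr1, P2ry12, Tmem119, Csf1r, Trem2 and Aif1, and the complement genes C1qa, C1qb and C1qc. They were listed by name, and no measured value entered the rule, though earlier results of these data were known. All 9 were found among the 24421 genes of each count table, and all 9 passed the expression filter in every comparison. Microglia depend on signalling through the receptor that Csf1r encodes, sense neurons through the fractalkine receptor encoded by Cx3cr1 and nucleotides through the receptor encoded by P2ry12, and are the main source of C1q in the brain, the protein that starts the classical complement pathway and marks synapses for removal.

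Total RNA of the right brain hemisphere was sequenced from 22 mice labelled C57B6/J OlaHsd. Each rank was represented by 7 males and 4 females. Rank was read from a tube test at an age of 10 to 12 weeks, and 1 dominant and 1 submissive mouse came from each cage. The paper reports that females of intermediate rank were regrouped and took the test again. The labels do not say which libraries, if any, came from them. The labels name no transgene and no drug. The count table of the males and that of the females carry different project names, so sex, table and sequencing project cannot be told apart. Totals ran from 12403943 to 15805170 counts per library in males and from 14967458 to 16488762 in females. In whole-tissue RNA a lower level may mean fewer cells of a type or less RNA per cell, and these cannot be told apart.

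One library stood apart. The summed level of 7 cerebellar marker genes was 43.2 CPM, the unit used throughout for counts relative to library size, in the dominant male of cage 1 and 552 to 1238 CPM in the other 21 libraries. That library also held the highest level among the males of P2ry12, Tmem119, Csf1r and Aif1, so the male fold changes and the correlations over males are given with and without it or its cage. Markers of other myeloid cells were measured in the same libraries. Summed over 9 genes, markers of monocytes and neutrophils were at 10.1 to 19.3 CPM in males and 10.3 to 13.7 CPM in females, and markers of perivascular macrophages were at 34.9 to 44.1 and 34.2 to 39.8 CPM. Markers of border tissue were higher, with 6 meningeal fibroblast genes at 109.8 to 166 CPM and 5 choroid plexus genes at 463 to 1065 CPM over all libraries. The 9 microglial genes together were at 323 to 377 CPM in males and 324 to 341 CPM in females, with no library at 0 for any of them, so the defining markers of microglia were present in every library.

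The 3 C1q genes, whose protein chains assemble into one molecule, lie side by side on the minus strand of chromosome 4 (GRCm38): C1qb at chr4:136880145-136886177, C1qc at chr4:136889802-136892914 and C1qa at chr4:136895916-136898844. They span 18700 bases, with 3624 bases between C1qb and C1qc and 3001 bases between C1qc and C1qa. Over the 14 males C1qb and C1qc correlated (r = 0.69), while Cx3cr1 (chr9:120048683-120068296) had r of -0.25 and -0.50 with them. Over differences between cage mates r of C1qb and C1qc was 0.55, or -0.72 without cage 1. The 250 bases before the start site are shown for C1qb, C1qc and Cx3cr1. They come from RefSeq (GRCm38.p6), all on the minus strand and written 5′ to 3′, at chr4:136886201-136886450, chr4:136892915-136893164 and chr9:120068297-120068546. Capitals mark GAGGAA or its reverse complement TTCCTC, the core of the site bound by PU.1, the transcription factor on which myeloid cells depend.
C1qb: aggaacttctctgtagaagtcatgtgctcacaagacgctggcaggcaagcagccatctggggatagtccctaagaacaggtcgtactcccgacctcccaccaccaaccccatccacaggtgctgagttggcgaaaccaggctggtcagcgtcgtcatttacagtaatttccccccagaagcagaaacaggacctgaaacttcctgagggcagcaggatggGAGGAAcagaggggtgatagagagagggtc
C1qc: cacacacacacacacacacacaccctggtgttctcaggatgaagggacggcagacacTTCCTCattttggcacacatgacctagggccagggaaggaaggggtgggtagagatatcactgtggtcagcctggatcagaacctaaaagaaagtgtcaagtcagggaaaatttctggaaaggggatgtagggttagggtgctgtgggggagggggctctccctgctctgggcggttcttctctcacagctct
Cx3cr1: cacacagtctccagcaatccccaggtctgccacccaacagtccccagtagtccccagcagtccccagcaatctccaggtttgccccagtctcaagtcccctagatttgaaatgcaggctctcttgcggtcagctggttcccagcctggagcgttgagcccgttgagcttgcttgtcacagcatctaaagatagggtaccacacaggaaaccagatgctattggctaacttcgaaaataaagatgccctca
The match began at position -30 from the start site in C1qb and at position -193 in C1qc, where it was part of the longer word GAGGAAGT on the opposite strand, while the Cx3cr1 window held none. That of P2ry12 held none either, and P2ry12 correlated with C1qc in males (r = 0.62, or 0.56 without the dominant male of cage 1). Over the 6 members with a promoter in the RefSeq table, which are these 3 with P2ry12, Aif1 and Trem2, 4 windows held GAGGAA on either strand and 1 held GAGGAAGT, which contains GAGGAA. Among all 32851 promoter windows of 250 bases, 23.3% held the former and 2.44% the latter. A match of letters is not evidence of binding, and no binding was measured.

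The remaining members are single genes elsewhere: P2ry12 at chr3:59216271-59262831, Tmem119 at chr5:113793729-113800352, Trem2 at chr17:48346401-48352276, Aif1 at chr17:35170992-35176001 and Csf1r on chromosome 18. No member shared an exon base with another gene of the tables. P2ry12 lies within the span of Med12l, a gene on the opposite strand. Whether reads were counted by strand was not given in the sources used here, so unspliced Med12l reads within P2ry12 exons cannot be told apart from P2ry12 reads if strand was not used.

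Levels of different genes were compared as CPM per kilobase of exon, over all 22 libraries. The C1q genes were highest, at 37.5 ± 2.5 for C1qa, 34.7 ± 3.2 for C1qc and 32.1 ± 2.2 for C1qb (SD, n = 22). Csf1r followed at 27.7 ± 2.6 and P2ry12 at 20.7 ± 1.9. Cx3cr1 was at 10.3 ± 1.6, Tmem119, a surface protein by which microglia are told from other macrophages, at 9.51 ± 1.01, Trem2, a lipid-sensing receptor, at 8.53 ± 0.85 and Aif1, which encodes the cytoskeletal protein Iba1, at 5.39 ± 0.73. Among the 15233 genes tested, 87.1% had a lower level per kilobase than C1qa and 38.8% a lower level than Aif1.

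Several neighbours in this order differed by less than their spread. The means of C1qa and C1qc, of C1qc and C1qb, of Cx3cr1 and Tmem119, and of Tmem119 and Trem2 lay apart by less than the larger of their 2 SDs. Within libraries the order was more regular: C1qa exceeded C1qc in 20 of 22, C1qc exceeded C1qb and Tmem119 exceeded Trem2 in 19 of 22 each, and Cx3cr1 exceeded Tmem119 in 16 of 22. The step from P2ry12 to Cx3cr1 held in 22 of 22 libraries, as did that from Trem2 to Aif1. The order of Cx3cr1 and Tmem119 differed between the tables: per kilobase, Cx3cr1 was at 9.40 ± 1.08 and Tmem119 at 9.80 ± 1.00 in males (n = 14), and at 11.98 ± 0.56 and 8.99 ± 0.87 in females (n = 8).

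**Figure D1:**
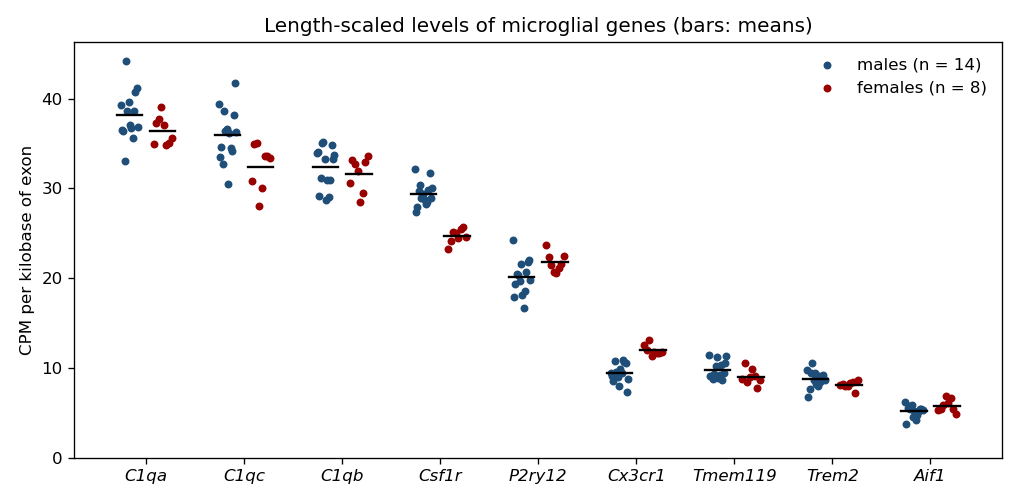
CPM per kilobase of exon (y axis) of the 9 microglial genes (x axis, ordered by mean) in 14 male (blue) and 8 female (red) libraries, each point 1 library and each bar a mean. The 3 C1q genes are highest and Aif1 is lowest, and the female points lie above the male points for Cx3cr1 and below them for Csf1r.

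The chains of C1q kept close proportions. C1qa made up 35.8% ± 1.2 of the summed level per kilobase in males and 36.3% ± 1.8 in females. C1qb made up 30.4% ± 1.2 and 31.5% ± 1.1, and C1qc 33.7% ± 1.2 and 32.3% ± 1.8 (SD, n = 14 and 8). Single libraries ranged from 28.3% to 39.5% for any one chain.

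The first question was whether dominant and submissive mice of the same sex differed. No microglial gene was called as differing in either sex. The CPM ranges of dominant and submissive mice overlapped for all 9 members, while among all genes they did not overlap for 0.00679% in males and 5.47% in females. In males, edgeR's quasi-likelihood test called 0 of 9 members at an adjusted p under 0.05, against a background of 0% of 14737 genes. No member had an unadjusted p under 0.05 in males, where 194 of all genes had one and DESeq2 also called 0. In females 0 of 9 members were called, against 0.0942% of 14865 genes (14 genes, 36 with the cage as a block, and 77 or 0.518% with DESeq2).

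Among the receptors, Cx3cr1 in males ran from 29.7 to 40.3 CPM with a median of 34.2 in dominant mice, and from 27.4 to 40.8 CPM with a median of 37.0 in submissive mice. In females it was 47.2, 45.0, 49.0 and 42.7 CPM in the dominant and 44.2, 43.7, 43.7 and 44.1 CPM in the submissive mice of cages 1 to 4. The groups overlapped in both sexes, and the dominant mouse was the higher of its cage in 2 of 7 male and 3 of 4 female cages. The log2 fold change, dominant minus submissive, was -0.07 (95% interval -0.24 to 0.10) in males and 0.06 (-0.04 to 0.16) in females, with adjusted p of 1.00 and 0.734.

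P2ry12 ranged from 41.7 to 56.8 CPM (median 47.5) in dominant and from 39.1 to 51.4 CPM (median 46.1) in submissive males. The highest of these values was the library with little cerebellar RNA, and the log2 fold change of 0.06 (-0.08 to 0.20) became 0.02 without it. Female values were 55.3, 52.4, 50.3 and 48.2 CPM in dominant and 48.1, 49.4, 50.6 and 52.5 CPM in submissive mice, a log2 fold change of 0.03 (-0.07 to 0.14). The female ranges overlapped, and the dominant mouse was the higher in 2 of 4 cages.

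Csf1r had the most counts of any member and the smallest standard deviation within groups. This was 4.04% of the mean, where counting error gives 2.53%, and evenness beyond counting error was not compared. Values of Csf1r follow. Its level ranged from 106 to 125 CPM (median 114) in dominant and from 109.6 to 123 CPM (median 112) in submissive males. In females it was 90.2, 93.4, 97.5 and 96.8 CPM in dominant and 94.9, 98.8, 99.6 and 95.2 CPM in submissive mice. The groups again overlapped. Its log2 fold changes were -0.00 (-0.09 to 0.08) in males and -0.05 (-0.12 to 0.03) in females, so the male interval allows a change of 5.86% down or 5.71% up. Without the dominant male of cage 1 the male value was -0.03, and that of Cx3cr1 stayed at -0.07.

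Dominant and submissive values of the C1q genes overlapped in males. C1qa ranged from 35.8 to 47.9 CPM in dominant and from 38.5 to 44.5 CPM in submissive males, C1qb from 31.0 to 37.4 and from 30.5 to 37.0 CPM, and C1qc from 34.4 to 41.5 and from 32.2 to 44.0 CPM. C1qb was higher in the dominant male in 6 of 7 cages, and the median difference over all 7 was 0.230 CPM. Its log2 fold change of 0.07 (-0.05 to 0.18, unadjusted p = 0.245 by edgeR) was the smallest p of any member in males. The male log2 fold changes of C1qa and C1qc were 0.01 (-0.11 to 0.12) and -0.00 (-0.13 to 0.13). Without the dominant male of cage 1 the values were 0.06 for C1qb, 0.00 for C1qa and -0.02 for C1qc. In females the log2 fold changes were 0.06 (-0.04 to 0.16) for C1qa, 0.04 (-0.09 to 0.16) for C1qb and -0.02 (-0.16 to 0.12) for C1qc, and dominant and submissive values overlapped for all 3.

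Tmem119, Trem2 and Aif1 had the fewest counts. Aif1 rested on 43 to 93 counts per library and Trem2 on 102 to 177, against up to 1839 for Csf1r. The spread within groups was 13.1% of the mean for Aif1 and 8.71% for Trem2, where counting error gives 11.9% and 8.36%. The log2 fold change of Aif1 was 0.06 (-0.16 to 0.29) in males, or 0.02 without the dominant male of cage 1, and 0.02 (-0.25 to 0.29) in females, so changes between 10.8% down and 21.9% up in males, and between 15.8% down and 22.2% up in females, lay within the intervals. That of Tmem119 was 0.01 (-0.14 to 0.17) and 0.05 (-0.12 to 0.22), the male value becoming -0.03 without the dominant male of cage 1, and that of Trem2 was 0.04 (-0.14 to 0.22), likewise becoming 0.02, and -0.02 (-0.20 to 0.16).

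**Figure D2:**
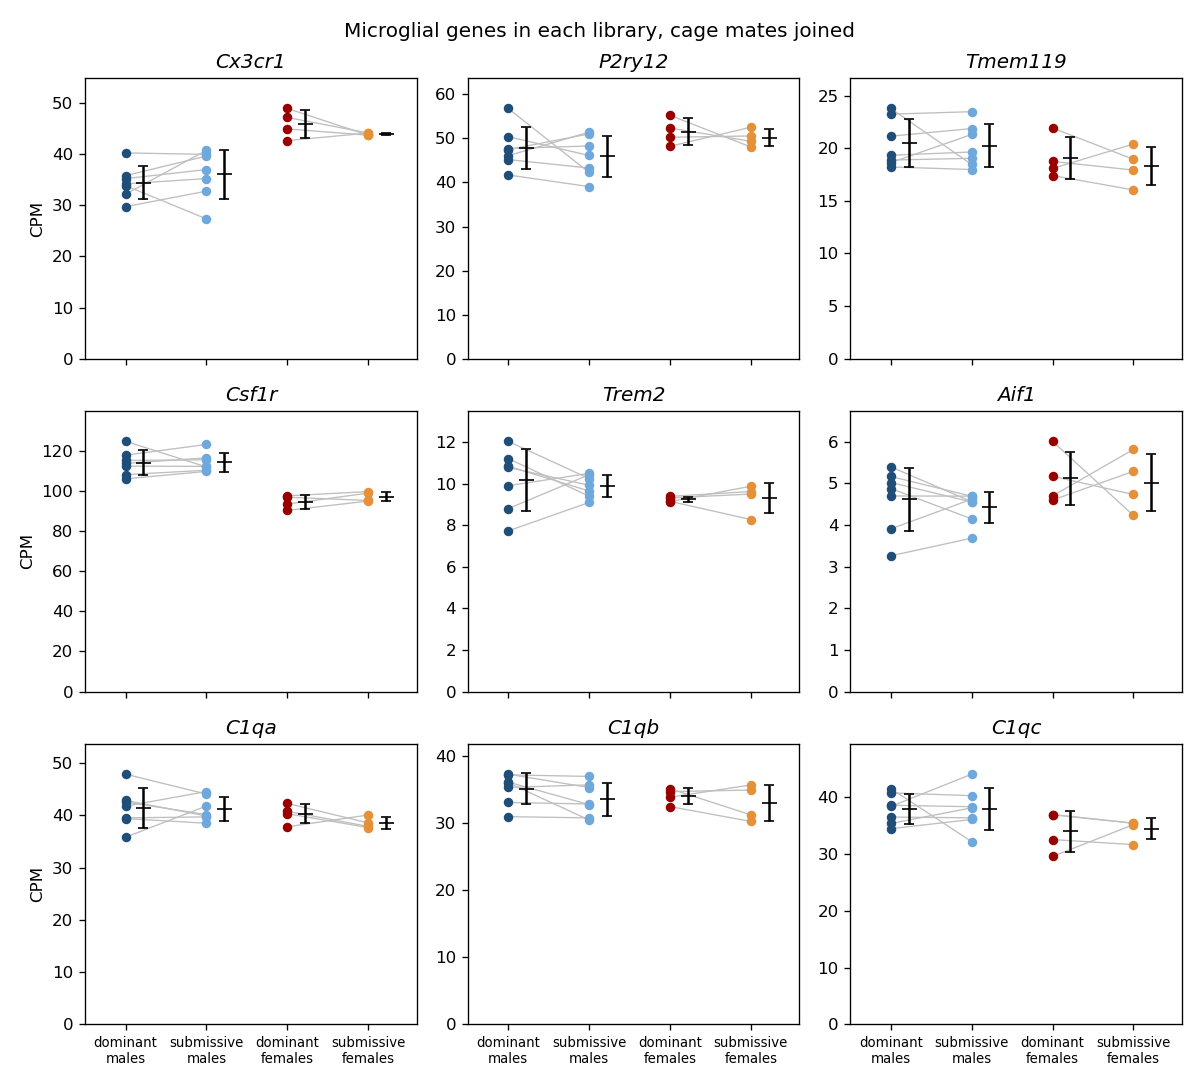
CPM (y axes, from 0) of each microglial gene in the 4 groups, each point 1 library, with grey lines joining cage mates and black bars giving the mean ± SD (n = 7, 7, 4 and 4). Dominant and submissive points overlap in every panel, and the female points of Cx3cr1 and Csf1r lie clear of the male ones.

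Both sexes were also taken in one fit. The log2 fold changes ranged from -0.02 for Csf1r to 0.06 for C1qb, and their intervals from -0.13 to 0.22, with a median of 0.03 over the members and 0.00 over all 15233 genes. Without the dominant male of cage 1 the median over the members was 0.01. No member was called there, nor in the test of whether the effect of rank differed between the sexes. In these 2 fits edgeR called 0% of all genes, 290 and 505 genes had an unadjusted p under 0.05, and DESeq2 called 0 in each. For Cx3cr1, whose fold changes had opposite signs in the sexes, the difference between them was 0.13 (-0.10 to 0.36, edgeR adjusted p = 0.999).

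The cage comparison asked whether mice housed together resembled each other. In males 5.89% of 14737 genes were called as differing between the 7 cages, and 0 of 9 microglial genes were. Cx3cr1 came nearest (F = 3.12, unadjusted p = 0.0389, adjusted p = 0.196 by edgeR). Its cage means ran from 30.6 CPM in cage 6 to 40.1 CPM in cage 4. An unadjusted p under 0.05 in this test was found for 1 of 9 members and 22.3% of all genes. Tmem119 ran from 18.1 CPM in cage 4 to 23.4 CPM in cage 7, P2ry12 from 40.4 CPM in cage 2 to 49.5 CPM in cage 1, and C1qb from 30.9 CPM in cage 3 to 37.1 CPM in cage 5. Leaving out the submissive male of cage 1, the cage mate of the library with little cerebellar RNA, brought P2ry12 (adjusted p = 0.0288) and Tmem119 (adjusted p = 0.0368) past the threshold, in a refit that called 14.2% of 14784 genes. That cage then rested on the 1 library that stood apart. Without that library instead, adjusted p was 0.0953 for P2ry12 and 0.0704 for Tmem119. In the 4 female cages 0.074% of 14865 genes and 0 of 9 members were called, and the ratio of the highest to the lowest cage mean stayed between 1.03 for P2ry12 and 1.22 for Tmem119.

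Male cages 5 to 7 had higher mean levels than cages 1 to 4 for 8 of 9 members, and a lower one for Cx3cr1. Cages 5 to 7 come after cages 1 to 4 in the numbering of the libraries, and the sets were not tested. C1qb was at 36.4 ± 1.0 CPM in cages 5 to 7 (n = 6) and 32.9 ± 2.2 CPM in cages 1 to 4 (n = 8), a log2 difference of 0.14. C1qc was at 40.03 ± 2.21 and 36.3 ± 2.7 CPM, and C1qa at 43.5 ± 2.7 and 39.7 ± 2.0 CPM. Cx3cr1 was at 33.2 ± 4.4 and 36.9 ± 3.2 CPM, a log2 difference of -0.16. The ranges of the sets overlapped for all 9 members, while they did not for 8.74% of all genes, and the median log2 difference of all genes was 0.01. For C1qc the overlap rested on the dominant male of cage 1 alone, at 41.5 CPM. Every other library of cages 1 to 4 lay below every library of cages 5 to 7 for that gene. Without the dominant male of cage 1 the differences were 0.16 for C1qb and -0.16 for Cx3cr1.

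The summed levels of other cell types' markers differed between the same sets of cages for some types and not for others. The summed level of 6 astrocyte genes was 3099.7 ± 87.6 CPM in cages 5 to 7 and 2866 ± 203 CPM in cages 1 to 4, and that of 6 endothelial genes 143 ± 9 and 129 ± 7 CPM. Neuronal (4460 ± 167 and 4248 ± 166 CPM), oligodendrocyte (5752 ± 280 and 5445 ± 212 CPM) and choroid plexus markers (811 ± 151 and 668 ± 141 CPM) were also higher in cages 5 to 7. The summed level of the 32 genes of microglial activation did not overlap between the sets. It was 2458 to 2570 CPM in cages 5 to 7 and 2175 to 2357 CPM in cages 1 to 4. Apoe alone had a mean of 1157 CPM in males, where the mean of this sum was 2365 CPM. The sum of 34 other microglial identity genes overlapped, at 655 to 684 and 607 to 682 CPM. The sum for perivascular macrophages was 38.8 ± 2.0 and 40.4 ± 3.3 CPM, and that for oligodendrocyte precursors 193 ± 9 and 195 ± 9 CPM. Their part in the differences of the C1q genes was not tested.

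In females, the cages labelled Gr were set against the numbered cages, and 0.00673% of 14865 genes and 0 of 9 members were called. Tmem119 had the smallest p of the members, at 18.1, 21.9, 20.4 and 19.0 CPM in the 4 mice of the numbered cages and 17.4, 18.8, 16.0 and 17.9 CPM in the 4 mice of the Gr cages. The ranges overlapped, and the log2 fold change was -0.18 (-0.33 to -0.02, edgeR unadjusted p = 0.0254, adjusted p = 0.854).

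**Figure D3:**
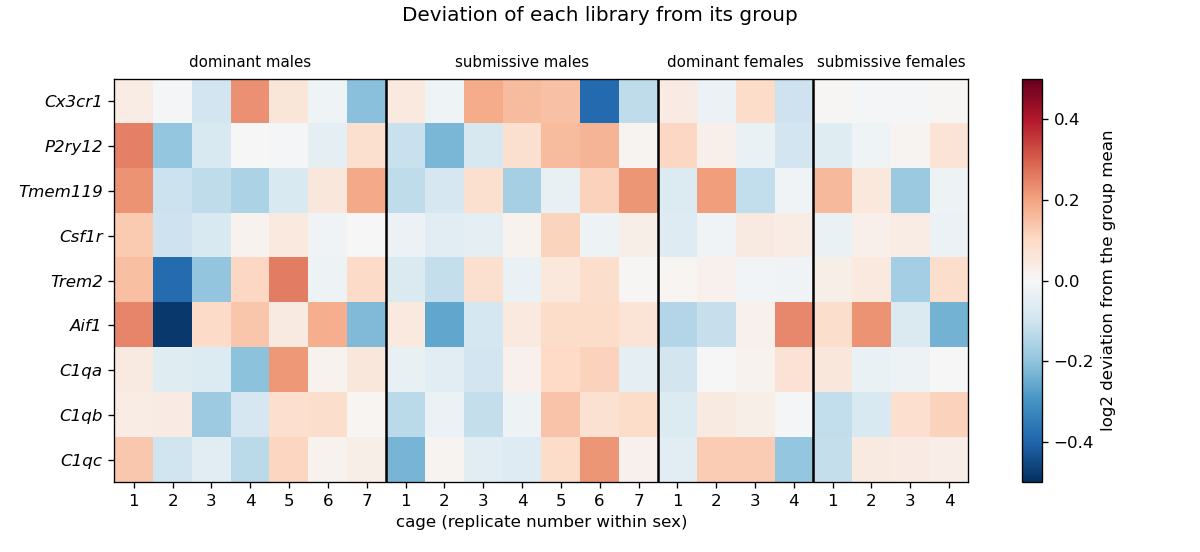
Log2 deviation of each microglial gene (rows) from the mean of its own group in each of the 22 libraries (columns, by cage within group), red above and blue below that mean. The dominant male of cage 1 is red for all 9 genes, and for Cx3cr1 the deepest blue lies in the submissive male of cage 6, at 27.4 CPM.

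Microglial genes did differ between the table of the females and that of the males, where 36.2% of 15233 genes did (18.4% higher and 17.8% lower in females). Of the 9 members 1 was higher in females, Cx3cr1, and 2 were lower, Csf1r and C1qc. A share of 3 in 9 is close to the background, and the median log2 fold change was -0.07 over the members and 0.00 over all genes.

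Markers of other cell types differed between the tables as well. The sum of 7 neuronal genes ranged from 4109 to 4704 CPM in males and from 4859 to 5149 CPM in females, and that of 4 oligodendrocyte precursor genes from 182.2 to 207 and from 161 to 181.5 CPM, without overlap. Meningeal fibroblast markers were at 145 ± 10 and 130 ± 13 CPM. Of 5 red cell markers 4, the haemoglobin genes, had 0 counts in every library, and Alas2 was at 6.35 ± 1.37 and 3.90 ± 1.18 CPM. Their part in the differences of the members was not tested.

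Cx3cr1 was higher in every female than in every male library. Male libraries ranged from 27.4 to 40.8 CPM with a median of 35.2, and female libraries from 42.7 to 49.0 CPM with a median of 44.2. The log2 fold change, females minus males, was 0.35 ± 0.06 (SE), or 27.5% (17.7% to 38.2%), with an edgeR adjusted p of 2.26e-05.

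Csf1r differed the other way. Male libraries ranged from 106 to 125 CPM with a median of 113, and female libraries from 90.2 to 99.6 CPM with a median of 96.0, so these ranges did not overlap either. Its log2 fold change was -0.25 ± 0.03 (SE), with an edgeR adjusted p of 3.34e-07. Ranges that did not overlap were found for 6.11% of all genes and for 2 of 9 members.

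C1qc was the only C1q gene called, at 32.2 to 44.0 CPM with a median of 38.2 in males and 29.5 to 36.9 CPM with a median of 35.3 in females. The ranges overlapped and the log2 fold change was -0.15 ± 0.05 (SE, edgeR adjusted p = 0.0227, or 0.0504 without the dominant female of cage 4, which had the lowest value). C1qa and C1qb had log2 fold changes of -0.07 (-0.15 to 0.02) and -0.04 (-0.12 to 0.05). Whether C1qc differed more than they did was not tested.

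The other 4 identity genes missed the threshold in this comparison. P2ry12 was at 46.9 ± 4.6 CPM in males and 50.8 ± 2.4 in females, with a log2 fold change of 0.12 (0.01 to 0.22, edgeR adjusted p = 0.0752, or 0.0290 without the dominant male of cage 1). Aif1 was at 4.52 ± 0.59 and 5.07 ± 0.62 CPM, a log2 fold change of 0.16 (-0.01 to 0.34). Tmem119 was at 20.4 ± 2.1 and 18.7 ± 1.8 CPM and Trem2 at 10.1 ± 1.1 and 9.29 ± 0.48 CPM, with log2 fold changes of -0.13 (-0.25 to 0.00) and -0.11 (-0.24 to 0.02). Tmem119 passed without the dominant female of cage 2 (adjusted p = 0.0335) and Trem2 without the dominant male of cage 2 (adjusted p = 0.0455). A trend on exon length brought Tmem119 (adjusted p = 0.0487) and C1qa (adjusted p = 0.0359) past the threshold, both lower in females.

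**Figure D4:**
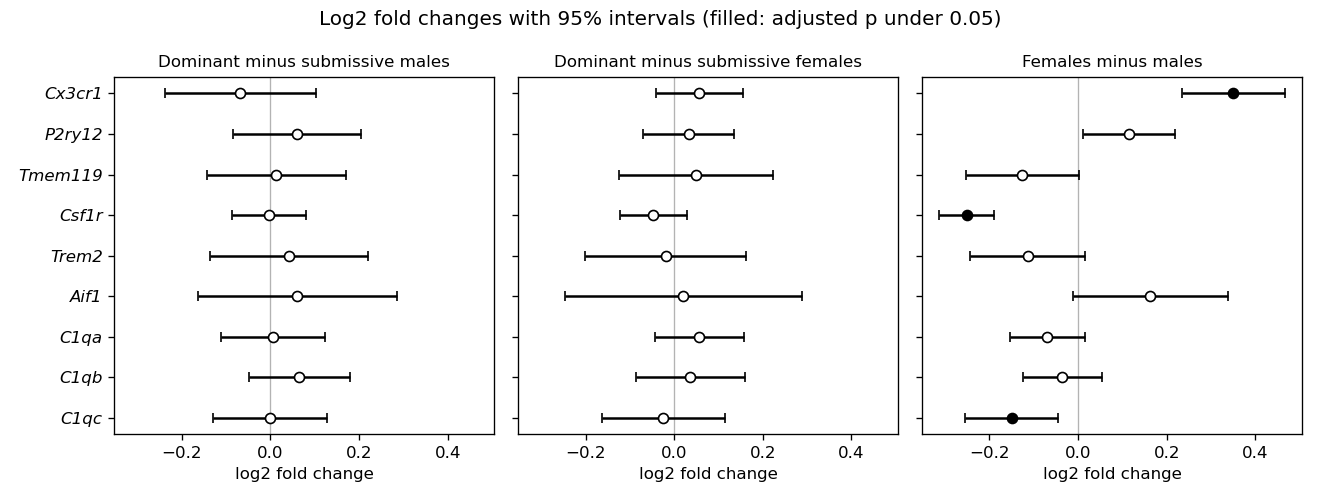
Log2 fold changes (x axes) of the 9 microglial genes with 95% intervals for rank in males, rank in females and females minus males, filled where the edgeR adjusted p was under 0.05. All intervals for rank span 0, and the filled points are Cx3cr1 at 0.35, Csf1r at -0.25 and C1qc at -0.15.

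Of 34 other microglial identity genes, 12 differed between the tables, 3 higher and 9 lower in females, a share close to the 36.2% of all genes, with a median log2 fold change of -0.04. Itgam, which encodes the complement receptor subunit CD11b, was at 25.3 ± 2.1 CPM in males and 19.6 ± 1.7 in females (log2 fold change -0.37, adjusted p = 2.55e-06). Inpp5d, a phosphatase that restrains immune receptor signalling, was lower in females with a log2 fold change of -0.27, and Sall1, a transcription factor that maintains microglial identity, was lower with a log2 fold change of -0.38. Of 32 genes of microglial activation 22 were tested and 4 differed, 3 higher and 1 lower, against 36.2% of all genes. Axl, a receptor for dying cells also found on other cells, was lower in females (log2 fold change -0.42), and the tetraspanin gene Cd9 (0.19) and the protease gene Ctsz (0.17) were higher.

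Of the other 19 complement genes 17 were tested, and 3 were higher and 4 lower in females, against 36.2% of all genes that differed in either direction. C1qbp, a mitochondrial protein first found as a binder of C1q, was higher (log2 fold change 0.30), C4b, which encodes the component cleaved after C1q is activated, was lower (-0.42), and Cd59a, an inhibitor of the terminal pathway, was higher (0.33). Among 10 ligands and partners of the members, 3 were higher and 2 lower, against the same background. Sirpa, whose product receives the signal of CD47, was higher (0.28), and Cd47 (-0.29) and Il34 (-0.22), the latter a ligand of the Csf1r receptor, were lower. Cx3cl1, which encodes the ligand of Cx3cr1 and is named here after its values were seen, was at 328 ± 32 CPM in males and 366 ± 24 in females (log2 fold change 0.16, adjusted p = 0.0144).

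No gene of these 4 lists was called for rank by edgeR: 0 of the 34 identity, 22 activation, 16 complement and 9 ligand genes tested in males and 0 of 34, 22, 16 and 10 in females. An unadjusted p under 0.05 was found for 1, 0, 1 and 0 of them in males and for 4, 3, 1 and 2 in females, where 1.32% and 10.5% of all genes had one. Cx3cl1 had a log2 fold change of 0.13 between dominant and submissive females, which edgeR did not call (adjusted p = 0.162) and DESeq2 did (adjusted p = 0.0471). This gene was named here after its values in the same samples were seen, so it is not independent evidence. Between male cages edgeR called only Ctsd, a lysosomal protease of many cell types, among all 4 lists (adjusted p = 0.0479, or 0.102 with a trend on exon length), against 5.89% of all genes.

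The members were also compared by how their levels moved together across libraries. Pearson's r of log2 CPM was taken after group means were removed, over 14 males and again over 8 females. These libraries share depth, dissection and cage, so r is given as a description. In males 31 of 36 pairs of members had a positive r, with a median of 0.44. All 3 pairs of C1q genes were among them, at 0.63 for C1qa and C1qb, 0.69 for C1qb and C1qc and 0.71 for C1qa and C1qc. The highest was P2ry12 with Csf1r at 0.80, followed by Csf1r with Trem2 and C1qa with C1qc at 0.71 each. Without the dominant male of cage 1 P2ry12 and Csf1r were at 0.70 and Csf1r and Trem2 at 0.70, and the highest r of any pair, at 0.71, was between C1q genes.

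Cx3cr1 had the lowest correlations over the male libraries. Of its 8 pairs in males 3 were positive, and its r was -0.50 with Tmem119 and with C1qc. All 28 pairs without Cx3cr1 were positive, and 27 were without the dominant male of cage 1. Leaving out each male library in turn gave 30 to 32 positive pairs, and r between Cx3cr1 and the other member most opposed to it stayed between -0.60 and -0.42. 

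Much of this likeness lay between cages, and what lay within them rested on cage 1. Over the 7 male cage means 27 of the 28 pairs without Cx3cr1 were positive (median 0.43), and over the 6 cages left without cage 1 all 28 were (median 0.53). The C1q pairs were at 0.83 to 0.88 over the 7 cage means and at 0.82 to 0.92 without cage 1. Over the 7 differences between cage mates 27 of the 28 pairs were also positive (median 0.46), but without cage 1 only 8 were (median -0.16), and the C1q pairs moved from 0.12 to 0.55 to between -0.72 and 0.60. Cage 1 holds the library with little cerebellar RNA, and its difference was the largest of any cage for P2ry12, at 14.5 CPM. For Cx3cr1 and Tmem119 r was -0.82 over the cage means and -0.87 without cage 1, while within cages it was 0.18 and 0.51. For Cx3cr1 and C1qc it was -0.58 and -0.57 over cage means and -0.41 and -0.90 within cages.

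Females did not show the same pattern, with 16 of 36 pairs positive and a median of -0.03. C1qb and C1qc kept a positive r of 0.50, while C1qa and C1qc were at -0.37 and C1qa and C1qb at -0.00. P2ry12 was at -0.86 with Aif1 and at -0.83 with C1qa. Whether r differed between the sexes was not tested, and 8 libraries give it little precision.

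**Figure D5:**
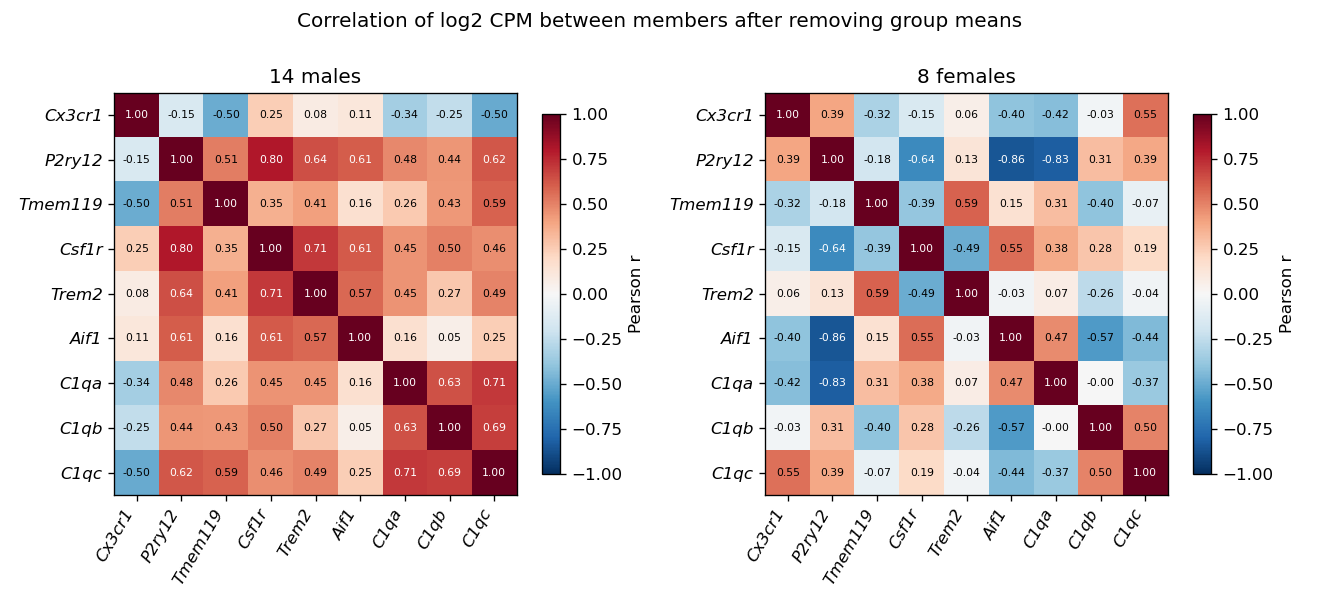
Pearson's r between the microglial genes (both axes) over 14 males (left) and 8 females (right), computed on log2 CPM after group means were removed, with the value in each cell. In males the cells outside the Cx3cr1 row and column are all positive, and in females the signs are mixed, with 16 of 36 pairs positive.

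The genes most like each member were taken as the first 3 by r in males among 14736 genes. Without the dominant male of cage 1, r for the 27 genes named here ran from 0.82 to 0.93, and their ranks among all genes changed for every member except P2ry12. Cx3cr1 was most like Sall1 (r = 0.86), Abcc9 (0.85) and Itga5 (0.84). The r of Sall1, which ranked 4th without the dominant male of cage 1, stayed between 0.81 and 0.89 when any male library was left out and was -0.01 in females. P2ry12 was most like Coch (r = 0.94), Gabra4, a GABA-A receptor subunit of neurons (0.92), and Lmo3 (0.92), which were at 0.92, 0.91 and 0.91 without the dominant male of cage 1 and none of which kept an r above 0.16 in females. Csf1r was most like Arel1 (0.91), Cmpk2 (0.89) and Wdr35 (0.89), and Trem2 like Rcn1 (0.91), Hsd17b10 (0.90) and Efcab10 (0.89). Tmem119 was most like Znhit2 (0.88), Evc2 (0.87) and Nfkbil1 (0.86), and Aif1 like Slc13a5 (0.87), Sytl2 (0.85) and Cfap20 (0.85). Among the C1q genes, C1qa was most like Prickle4 (0.89), Higd1a (0.88) and N6amt1 (0.88), C1qb like Tsfm (0.93), Mfsd3 (0.91) and B2m, the light chain of MHC class I (0.90), and C1qc like Tomm40l (0.92), Cst3, a cystatin abundant in microglia and other brain cells (0.91), and Uqcr11 (0.91). The nearest other member ranked from 92nd for Csf1r to 3619th for Cx3cr1. Over the 27 genes r in males was 0.84 to 0.94, and in females it was -0.81 to 0.88 with a median of 0.16.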

How the data were processed

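Reads of ribosome-depleted total RNA were trimmed by the authors with cutadapt 1.15 and bbduk, mapped to mm10 with STAR 2.6.0a and counted per gene with featureCounts 1.6.2, and the deposited values are raw counts per gene without normalization. Strand and multi-mapping settings were not given in the sources used here. Columns were matched to samples by library name, and 0 columns of other samples were left out.

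Counts were scaled to CPM with TMM factors and tested with the quasi-likelihood test of edgeR 4.0.16 in R 4.3.3 over all genes kept by its expression filter (minimum count 10, minimum total 15), with Benjamini-Hochberg adjustment at 0.05. Intervals are 95% intervals of the fit. Log2 CPM used a prior count of 2. Rank was fitted within each sex, over both sexes and as an interaction, cage within each sex, and the table with groups of rank. Scripts were tested on simulated data. Alternatives were DESeq2 1.42.0, its size factors, no filter, a loess trend on exon length, the cage as a block, subsets of cages and leaving out each library. Leaving out each male library or cage 1 in the correlations, and the dominant male of cage 1 and DESeq2's size factors in the cage sets, were added after seeing the data.

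Replicate numbers pair cage mates, as library names give the cage. Over all genes, deviations of cage mates correlated with a mean r of 0.18 in 7 male cages (-0.03 to 0.27) and 0.02 in 4 female cages (-0.03 to 0.05), against -0.03 and -0.01 for other pairs. No 2 libraries of a group agreed within sampling noise. Each mouse is 1 library.

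The members and gene lists were chosen with earlier results of these data known. All 9 members are named, with up to 3 genes of smallest p per other list among those past the threshold of a fit, and the first 3 genes by r for each member. Cx3cl1 falls outside this rule. Coordinates are those of the count tables (GRCm38). Promoters were found for 6 of 9 members, and no protein sequences were used.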

Additional observations from a re-analysis of the deposited data

Results flagged for a closer look

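Over the 36 combinations of 9 microglial genes and 4 groups, 1 library lay far from the others of its group by Dixon's test, where chance flags about 1 in 20. C1qc was at 31.6 CPM in the submissive female of cage 1, while the other 3 submissive females lay between 35.1 and 35.4 CPM, so that the gap took 0.932 of the group's range. The close spacing of those 3 libraries sets the size of that ratio, since the dominant females of the same gene ranged from 29.5 to 36.9 CPM. The cause was not tested.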

How the results depend on the processing

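No microglial gene was called for rank in any sex, over both sexes or in the interaction under any alternative that gave an adjusted p, and Cx3cr1 and Csf1r kept their direction and their call between females and males under all 26 alternatives (log2 fold changes 0.31 to 0.36 and -0.27 to -0.25). DESeq2 gave none for 6 members for rank in females (Tmem119, Trem2, Aif1 and the C1q genes) and for Aif1 between male cages. Of the other 1469 refits of a member 8 changed a call, 1 losing it (C1qc without the dominant female of cage 4) and 7 gaining it (P2ry12 without the dominant male of cage 1, and the same gene and Tmem119 between male cages without the submissive male of cage 1, Tmem119 and C1qa with the length trend, Tmem119 without the dominant female of cage 2 and Trem2 without the dominant male of cage 2). In 104 refits a member that was not called changed sign.

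The counts over all genes moved more, and the causes were not tested. For rank in females 14 genes were called, 77 with DESeq2, 84 with no expression filter, 0 with the length trend, 0 in a fit of all 22 samples, 5 in cages 1 and 2, 120 in cages 3 and 4, and 0 (without the submissive female of cage 1) to 77 (without the dominant female of cage 2) when 1 library was left out. Pairing cage mates by a replicate block gave 36 genes for rank in females, 8 with the length trend added, and 0 for rank in males, over both sexes and in the interaction, and it changed no call of a member. Between male cages 868 genes were called, 547 with the length trend, and 381 (without the submissive male of cage 3) to 2102 (without the submissive male of cage 1) with 1 library left out. Between female cages 11 were called, 5 with DESeq2, 99 with no filter, and 7 (without the submissive female of cage 1) to 92 (without the dominant female of cage 2) with 1 library left out. For the Gr cages 1 was called, 2 with DESeq2, 20 with no filter, 2 with the length trend, and 0 to 6 with 1 library left out. Aif1 and Trem2 had the fewest counts, and their spread pooled over the groups was close to counting error. In single groups the spread of Trem2 ran from 1.33% of the mean in dominant females to 14.6% in dominant males.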
